A study of Mus musculus with 18 samples.

Results

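The splenic dendritic cells (DC) of this series were 2 of its 18 arrays, and they were compared with the 16 arrays of the 8 other immune cell populations. They were picked out by their sample title. The comparison itself was chosen with earlier results of these data known. Expression was measured with 1-colour arrays (the Mouse Gene 1.0 ST type of Affymetrix), which carry whole-transcript probe sets. All animals were male mice of the C57BL/6 background, 6 weeks old, and all had received 10000 U of interferon-gamma (IFNg) subcutaneously 2 h before, so every population compared here had been exposed to the cytokine. Animals without IFNg and other times were not analysed here, and no value below is a response to IFNg.

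DC were sorted from spleen as CD11c+ MHCII+ Flt3+ cells. The other populations, of 2 arrays each, were Ly6G+ granulocytes (GN), NK1.1+ TCRB- natural killer cells (NK), NK1.1+ TCRB+ T cells (NKT), CD4+ TCRB+ T cells (T4), CD8+ TCRB+ T cells (T8), TCRgd+ TCRB- T cells (Tgd) and CD4+ TCRB+ CD25+ T cells (Treg) from spleen, and F4/80+ ICAM2+ macrophages (MF) from the peritoneal cavity. The comparison therefore sets DC against 6 lymphoid and 2 myeloid populations. MF came from another site than DC, so cell type and site cannot be told apart there. The DC labels name no marker that would exclude other cells or separate DC subsets, and the labels do not say whether the 2 arrays of a population came from different animals. The p-values then cover the spread among these arrays, which may be technical.

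Dendritic cells take up material in tissue, cut it into peptides and present these on MHC class II molecules to CD4+ T cells. They arise from bone marrow precursors under the cytokine Flt3 ligand. In mouse spleen, conventional DC comprise a subset known for CD8 alpha, Xcr1 and Clec9a, which presents antigen of dead cells to CD8+ T cells (cDC1), and a subset known for Sirpa and, in part, CD4 and Esam (cDC2). Plasmacytoid DC, known for type I interferon, form a separate line.

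Values are log2 intensities, and a difference is the DC mean minus the mean of the 8 other population means, ± its standard error in a limma fit over all 18 arrays, with p adjusted over all genes by the Benjamini-Hochberg method. A gene was called at an adjusted p under 0.05 and a difference of at least 2-fold, which is 1 on the log2 scale. Because the RMA method compresses differences of dim genes, a fold near the background understates the change. As a mean of 8 populations can be passed by a gene that GN or MF carry at a higher level, the text also gives the genes that were at least 2-fold higher in DC than in each of the 8 populations, tested with the largest of the 8 p-values.

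The genes behind the gate came out as labelled. Flt3, the receptor of Flt3 ligand, had 11.68 and 11.54 on DC replicates 1 and 2, and its values on the 16 other arrays ran from 6.19 over a median of 6.44 to 6.77. H2-Ab1, a chain of the class II molecule I-A, had 13.49 and 13.48 in DC and 6.66, 7.497 and 9.998 as the lowest, median and highest of the other arrays. Itgax, which encodes CD11c, had 12.35 and 12.19 in DC, against 6.07 to 11.999 elsewhere. DC did not overlap with any other array in these genes, but NK came within 0.403 of the DC mean of Itgax. The sort selected on these proteins, so their levels check the labels and are no finding.

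Over all 19752 genes the median difference was -0.09. In DC 1048 genes (5.31%) were higher and 477 (2.41%) lower. With the 16 other arrays as 1 group, so that the differences between the other populations entered the spread, 415 and 98 of these were called, and 111 of the 227 genes named by rule or in the text lost a call. All 1048 genes that were 2-fold higher at an unadjusted p under 0.05 also passed the adjusted p, so the adjustment removed none of them. Of the higher genes, 916 were 2-fold above the mean of the others on each DC array taken alone, as were 396 of the lower genes below it. The highest population mean of the 1048 genes lay in DC for 573, in GN for 266 and in MF for 163. GN exceeded DC by at least 2-fold in 140 of them, and 55 of these 140 were 2-fold above replicate 1 on DC replicate 2. The genes that were higher in DC than in each other population numbered 263 (1.33%), and those lower than in each numbered 24 (0.122%). Gene lists are described below by counts and medians, to be read against these shares.

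The 2 DC arrays correlated at r = 0.991 over all genes, within the range of the other pairs of one population (0.990 to 0.996), and the median intensity of the 18 arrays lay between 139 and 151. DC replicate 2 stood apart from replicate 1 in one direction. On it 141 genes were at least 2-fold above replicate 1, and only Nr4a2 and Slc15a2 were 2-fold above it on replicate 1. Of the 141 genes, 86 had their highest population mean in GN, 32 in MF and 13 in DC. All 15 granulocyte markers were among them, and their summed intensity was 8966 on DC replicate 1 and 31387 on replicate 2, against 93951 to 106236 in GN and 986 to 6362 in the other 7 populations. Ly6g, the protein on which GN were gated, had 7.63 and 10.26 in DC and a mean of 12.89 in GN. In such bulk samples fewer cells of a type and less RNA per cell cannot be told apart.

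A second group on replicate 2 was immunoglobulin transcripts, which plasma cells make in bulk. The immunoglobulin genes and Jchain, the chain that joins antibody polymers, made up 11 measured genes, grouped after their values were seen. Of these, 8 were at least 2-fold above replicate 1 on replicate 2, with a median of 3.21 over the 11. Igkv9-120 had 6.77 on replicate 1 and 12.32 on replicate 2, and Igha had 6.64 and 11.91. Without DC replicate 2, the difference of Igha was -0.036 and that of Igkv4-91 -0.11, and neither these nor Igkv9-120 (0.39), Igkv6-20 (0.10) and Ighm (0.28) passed. On replicate 1 all 5 lay within the range of the other 16 arrays. Jchain (9.898 and 11.72), Igkv10-96 (10.35 and 11.96) and Igkv8-30 (8.32 and 8.89) lay above every other array on both DC replicates. Igkv8-30 was 0.57 higher on replicate 2 than on replicate 1.

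**Figure D1:**
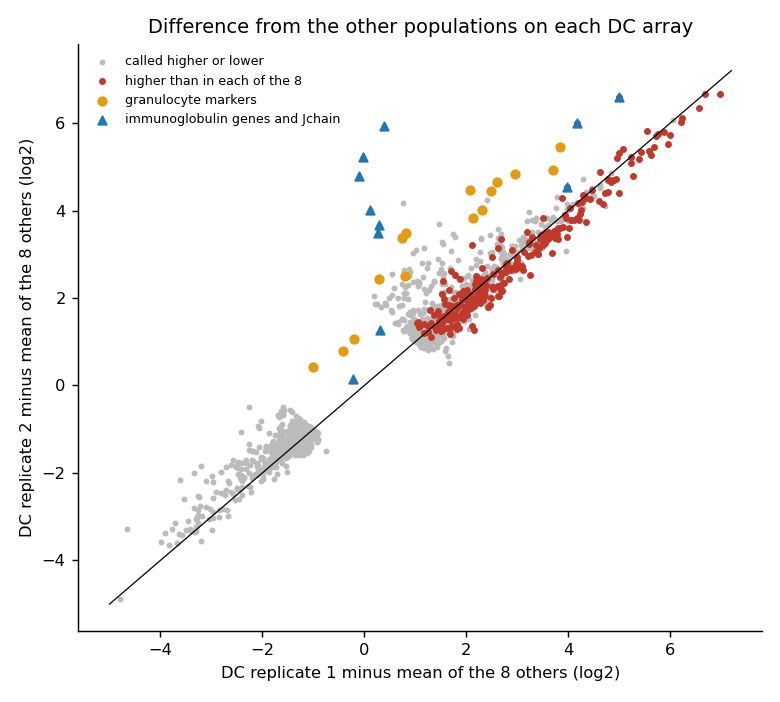
Difference of each called gene, granulocyte marker and immunoglobulin gene from the mean of the 8 other populations on DC replicate 1 (horizontal) and replicate 2 (vertical), in log2 units, with the line of equal values. Genes higher in DC than in each of the 8 others mostly follow the line, while granulocyte markers and immunoglobulin genes lie above it. The call against each population requires DC to exceed GN as well, so it leaves out genes that are higher in GN. Igkv10-96, Igkv8-30 and Jchain belong both to the genes higher than in each and to the immunoglobulin group.

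**Figure D2:**
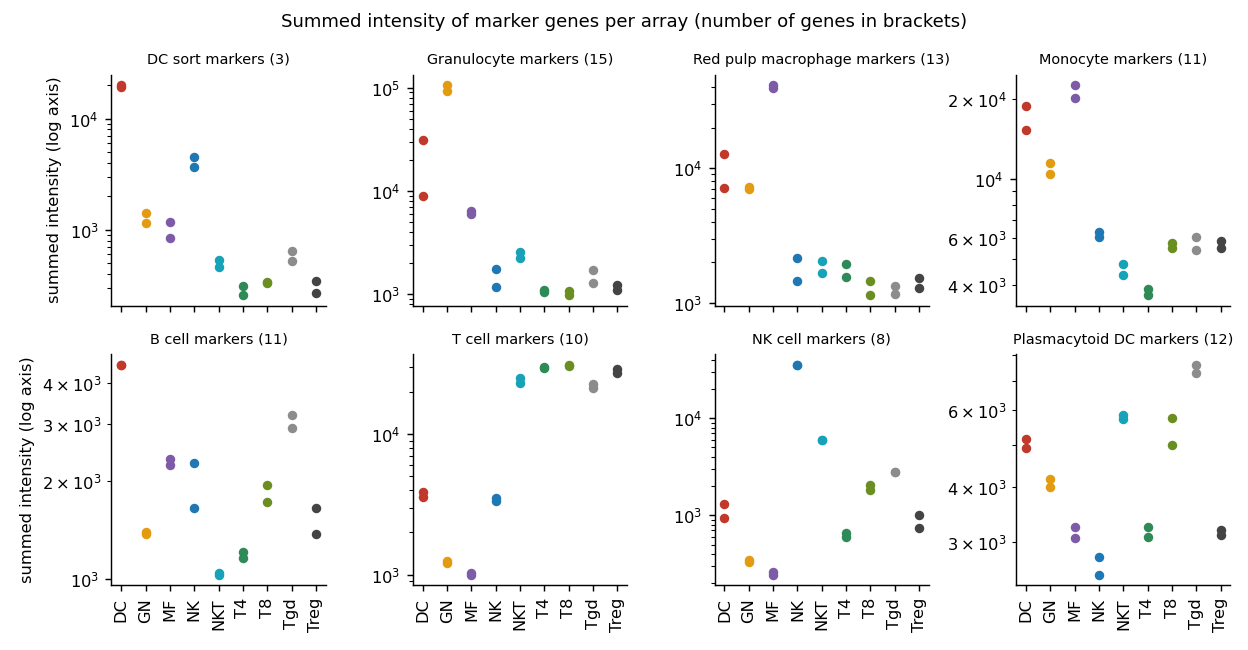
Summed intensity of 8 marker lists (log axis) for each population, DC on the left, 1 point per array. The DC arrays are alike in B cell, T cell and plasmacytoid DC markers and differ in granulocyte markers, with sums of 8966 and 31387.

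Some markers of cells that are no population of the series were also higher in DC. Of 13 red pulp macrophage markers, 9 were higher, and Spic, the factor these macrophages need, and Vcam1 exceeded each other population. Spic had 8.42 and 9.08 in DC, against at most 6.34 elsewhere, and Vcam1 had 9.04 and 10.16, against at most 7.88. The 13 markers summed to 7132 and 12712 in DC, to 7004 to 7298 in GN and to 39148 to 41415 in the peritoneal MF. The sum on DC replicate 1 thus lay within the range of GN. On replicate 2, 8 of the 13 markers were 2-fold above replicate 1. Of 11 monocyte markers, 8 were higher, and Ace exceeded each other population. Their sums were 15328 and 18750 in DC and 20193 to 22514 in MF. The B cell markers had their highest sums in DC, 4547 and 4562, against at most 3200 in Tgd. Of 11 such markers, 6 were higher in DC, among them Ms4a1 (CD20) at 9.62 and 9.62, against at most 8.13 elsewhere. Pax5 and Ebf1, the factors that define B cells, stood at 7.13 and 7.06 and at 6.16 and 6.15 in DC, below the median of 7.197 of all values, and their highest values elsewhere were 7.35 and 6.35. No stromal marker (0 of 11) and no eosinophil, basophil or mast cell marker (0 of 9) was called. With 5.31% of all genes higher and 2.41% lower, 0 calls in lists this short say little about these cells. The part of these other cells in the results below was not tested.

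Of the 263 genes, 240 still exceeded each other population without DC replicate 1 and 249 without DC replicate 2. Their median for replicate 2 minus replicate 1 was -0.16, and 3 (Igkv10-96, Jchain and Vcam1) were 2-fold higher on replicate 2. The gap between DC and the next population was widest in Dnase1l3, a secreted enzyme that digests chromatin DNA. It had 12.86 and 12.86 in DC and 5.71, 6.09 and 7.05 as the lowest, median and highest of the other arrays, a difference of 6.68 ± 0.14 (adjusted p = 3.79e-16). GN came next, 6.08 below DC.

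Kynu, kynureninase of the tryptophan breakdown pathway, had 11.597 and 11.33 in DC, against 5.25 to 5.803 elsewhere. Havcr2, which encodes the inhibitory receptor TIM-3, had 11.89 and 11.78, against 5.26 to 6.46. Adam23, an ADAM family protein without protease activity, had 12.05 and 11.61, against 5.89 to 6.47. In these 3 genes no other array exceeded 6.47, the value of Adam23 on an NKT array.

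The class II beta chain gene H2-Eb2 followed with 11.77 and 11.54, against 5.79 to 6.396 on the other arrays. Apol7c, an apolipoprotein L family member, had 12.37 and 12.34, against 5.72 to 7.18, and Kmo, the enzyme before kynureninase in the pathway, 12.28 and 12.06, against 5.12 to 7.21. The list went on with Bex6 (a margin of 5.17 over GN), the orphan receptor Gpr33 (5.02), Flt3 (4.95), the receptor kinase Grk3 (4.92) and the adhesion receptor Adgrl3 (4.75). By the rule that named these 12 genes, the lower DC array lay at least 2-fold above the highest other array. All 12 remained higher than each other population under every alternative that allowed the test, the 4-fold threshold included. As they were picked for the widest gap, this follows from the choice and is no separate support.

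**Figure D3:**
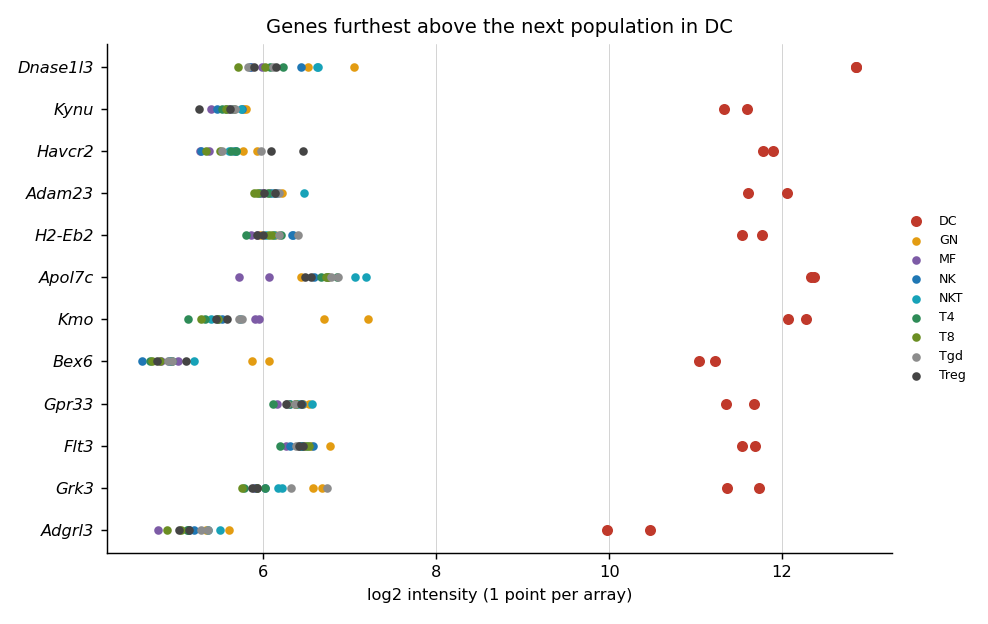
Log2 intensity of the 12 genes with the widest gap between DC and the next population, 1 point per array. DC points lie between 9.97 and 12.86, and no other array exceeds 7.21 in any of the 12.

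Further down the 263 genes were several with known roles in antigen presenting or other cells, named here after their values were seen. The adhesion protein Dscam had 11.56 and 10.97 in DC and at most 7.29 elsewhere. Tbc1d9 (a margin of 3.61), the melanosome transport protein Mreg (3.58), the class I-like gene H2-M2 (3.602), the protease inhibitor Spint1 (3.38), the succinate receptor Sucnr1 (2.73) and the elastase Mmp12 (2.58) belonged to it, as did Anpep, an aminopeptidase known as CD13 (2.49 over MF), and Slamf8 (2.64 over MF). Siglecg and Cd22, sialic acid receptors of B cells, exceeded the next population by 2.43 and 1.92.

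Genes of DC growth and lineage were mostly higher. Of 25 such receptors and transcription factors, 17 were higher and none lower, with a median difference of 1.84, and 7 were higher than in each other population. The gate gene Flt3 is among the 17 and the 7. Kit, the stem cell factor receptor, had 12.13 and 11.96 in DC, against 6.07 to 9.52 elsewhere, with Tgd next. Zbtb46, a factor that marks conventional DC, had 9.36 and 9.07, against 6.79 to 7.18, a difference of 2.1999 ± 0.09 (adjusted p = 1.84e-12). Zfp366, also called DC-SCRIPT, had 11.102 and 10.81, against 6.94 to 7.65. The remaining 4 were Batf3, which cDC1 need (9.203 and 9.25, against at most 7.56), Bcl11a (11.62 and 11.39, at most 9.85), Relb (10.096 and 9.78, at most 8.63) and Flt3. No other array reached a DC array in these 7 genes, which their choice as higher than each population nearly fixed.

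The factors that several immune cells share did not set DC apart from each other population. Spi1, which encodes PU.1, had 12.17 and 12.21 in DC and 12.75 in GN. Irf8, needed by cDC1, had 12.14 and 12.42 in DC, 12.41 in MF and 12.15 in NK. Irf4, needed by cDC2, had 9.31 and 8.92 in DC and 9.03 in Treg. The growth factor receptor chains Csf2rb (11.87 and 11.97) and Csf1r (9.89 and 10.65) stood below GN and below MF, one each. All 5 genes were called higher in the main contrast, by 1.34 (Irf4) to 4.12 (Spi1).

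Genes of both conventional subsets were high in the same arrays. Of 16 measured cDC1 genes, 13 were higher, 8 of them than in each other population, and the median difference was 3.44. Clec9a, a receptor for dead cells, had 10.898 and 11.18 in DC, against 4.71 to 7.06 elsewhere. The chemokine receptor Xcr1 had 10.94 and 11.19, against 5.98 to 6.61, a difference of 4.75 ± 0.12 (adjusted p = 2.36e-15). Gcsam, Naaa, Wdfy4, which is needed for cross-presentation, Cadm1, Ifi205 and Snx22 were the other 6. Their margins over the next population ran from 3.74 in Gcsam to 1.04 in Snx22. Snx22 fell short of 2-fold over the next population without DC replicate 2 (0.84), and Ifi205 without MF replicate 3 (0.99).

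Of 17 cDC2 genes, 12 were higher and 3 higher than in each, with a median of 2.08. Clec4a4, the lectin DCIR2, had 9.901 and 9.81 in DC, against 3.96 to 6.17 elsewhere. Cd209a, a DC-SIGN homologue, had 12.42 and 12.201, against 6.08 to 10.47, the highest in MF. Esam, an adhesion molecule, had 8.87 and 8.67, against 6.495 to 6.82. Sirpa, at 12.14 and 12.08 in DC, was as high in GN (12.19). The 3 genes named first had no overlap with any other array, which their choice as higher than each population nearly fixed. Sirpa overlapped with GN. Counts of cells in either subset cannot be read from these arrays.

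The T cell coreceptors that mouse splenic DC are known to carry were present. Cd4 had 10.86 and 10.39 in DC, against population means of 11.99 in T4, 11.71 in Treg and 10.74 in NKT and at most 7.26 in the rest. Cd8a had 9.902 and 10.19 in DC, 12.26 in T8 and at most 7.56 in the other 7. Both were called higher, by 2.12 ± 0.15 (adjusted p = 1.76e-09) and 2.37 ± 0.11 (adjusted p = 1.19e-11). Cd8b1, the beta chain that T cells pair with Cd8a, was lower at 6.61 and 6.77 in DC, against 12.01 in T8, and Cd3e, a T cell receptor subunit, was lower at 7.65 and 7.63, against 12.79 to 12.92 in the 5 T cell populations. On both DC arrays the T cell subunits lay in the range of GN, MF and NK, while Cd4 and Cd8a did not.

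**Figure D4:**
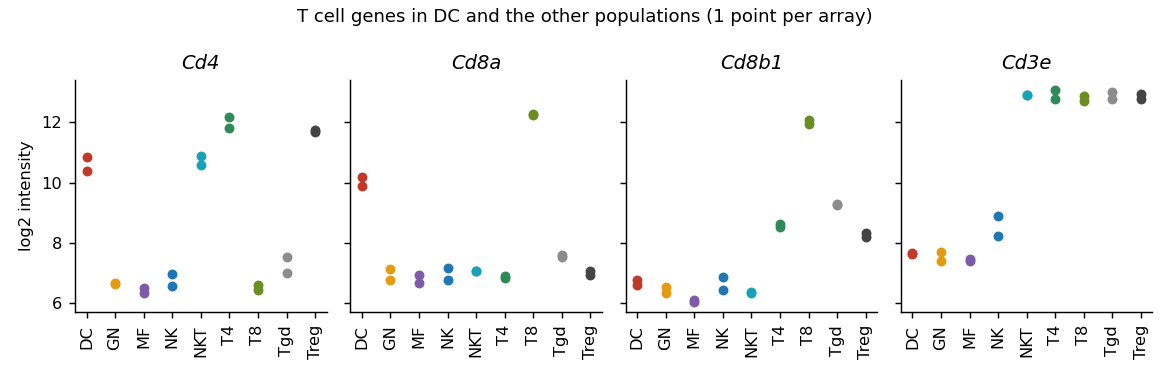
Log2 intensity of Cd4, Cd8a, Cd8b1 and Cd3e by population, DC on the left, 1 point per array. DC lie between 9.902 and 10.86 in Cd4 and Cd8a and between 6.61 and 7.65 in Cd8b1 and Cd3e.

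The plasmacytoid DC list gave 4 higher and 1 lower of 12. Spib (8.99 and 9.02 in DC, at most 7.02 elsewhere) and the inhibitory receptor Lair1 (10.65 and 10.35, at most 9.6001) were higher than in each other population, though Lair1 fell below 2-fold over GN without DC replicate 1 (0.86) or GN replicate 2 (0.902) and after quantile normalization (0.89). Tcf4, the factor that plasmacytoid DC depend on, had 9.51 and 9.52 in DC and 9.57 in MF. Siglech, their defining surface marker, had 7.51 and 7.204, against 6.25 to 6.94, and was not called with a difference of 0.73. The summed intensity of the 12 genes was 5136 and 4916 in DC and 2517 to 7609 in the other populations.

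The class II presentation genes were higher in 10 of 15 members and higher than in each population in 9, with a median of 3.37 and none lower. The gate gene H2-Ab1 is among the 10 and the 9. As DC were sorted as MHCII+ cells, high class II values in this list are not independent of the gate. H2-Aa, H2-Eb1 and Cd74, the invariant chain that guides class II molecules to endosomes, exceeded 13 on both DC arrays, with 13.41 and 13.41, 13.17 and 13.11, and 13.37 and 13.31. Their highest values elsewhere were 10.505, 9.195 and 10.61, with MF as the next population. Ciita, the coactivator on which class II transcription depends, had 11.97 and 11.77 in DC and 6.64, 6.903 and 8.63 as the lowest, median and highest elsewhere. The peptide loading genes H2-DMa (12.305 and 12.31), H2-Oa (11.82 and 11.63) and H2-Ob (12.14 and 11.89) were 1.84, 2.23 and 2.02 above the next population, which was MF, T8 and Treg in turn. Rfx5, a subunit of the complex that binds class II promoters, was called at 1.05 but not without DC replicate 1 (0.997) or with GN left out (0.98).

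Class II promoters are known for a conserved array of elements that ends in the Y box, an inverted CCAAT sequence bound by the factor NF-Y. RefSeq promoters (assembly GRCm38.p6, 250 bases before to 50 after the start of a transcript) were at hand for 6 of the 9 class II genes, and were searched on both strands for the letters CTGATTGG. That motif was present in 4 of their 7 promoters (57.1%). It was in 19 of 278 promoters (6.83%) of the 210 matched genes that were higher in DC than in each population, these 4 included. The share was 4.69% among the 19019 promoters of measured genes and 4.1% among all 32851 promoters. The 4 are shown 5′ to 3′ on the strand of the gene, since they share the motif while their genes share the DC pattern. Capitals mark the match, which began at -51 in H2-Aa, -62 in H2-Eb1, -103 in H2-Eb2 and -46 in H2-Oa relative to the start. The sequences are from chr17:34287774-34288073 (minus strand), chr17:34305617-34305916, chr17:34325425-34325724 and chr17:34092129-34092428 (plus strand).
H2-Aa: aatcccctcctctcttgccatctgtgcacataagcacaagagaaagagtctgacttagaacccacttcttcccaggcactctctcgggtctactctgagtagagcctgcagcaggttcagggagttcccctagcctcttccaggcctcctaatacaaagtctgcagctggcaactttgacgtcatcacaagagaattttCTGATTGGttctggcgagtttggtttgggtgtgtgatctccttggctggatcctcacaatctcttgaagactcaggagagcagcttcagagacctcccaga
H2-Eb1: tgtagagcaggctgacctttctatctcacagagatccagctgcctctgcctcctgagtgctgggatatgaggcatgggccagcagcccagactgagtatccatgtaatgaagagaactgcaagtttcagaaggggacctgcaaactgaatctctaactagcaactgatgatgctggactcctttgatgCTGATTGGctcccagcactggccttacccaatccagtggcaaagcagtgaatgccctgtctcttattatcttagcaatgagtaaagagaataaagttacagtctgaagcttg
H2-Eb2: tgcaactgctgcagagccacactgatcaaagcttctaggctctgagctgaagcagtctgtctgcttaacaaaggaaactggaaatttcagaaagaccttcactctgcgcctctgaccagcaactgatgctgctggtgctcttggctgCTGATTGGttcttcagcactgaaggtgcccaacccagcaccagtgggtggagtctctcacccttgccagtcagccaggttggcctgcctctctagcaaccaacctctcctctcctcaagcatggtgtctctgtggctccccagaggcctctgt
H2-Oa: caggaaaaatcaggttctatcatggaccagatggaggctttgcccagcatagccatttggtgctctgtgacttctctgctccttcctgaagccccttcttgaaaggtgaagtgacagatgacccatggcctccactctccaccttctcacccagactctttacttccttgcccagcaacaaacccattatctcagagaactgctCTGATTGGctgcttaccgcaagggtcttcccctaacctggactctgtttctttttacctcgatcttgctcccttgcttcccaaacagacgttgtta
The promoters of H2-DMa and H2-Ob did not hold the exact letters CTGATTGG in this window. That of H2-Ob held TTGATTGG, which differs in the first letter only and was not counted as a match. A composite element for ETS and IRF factors, GGAANNGAAA, was searched in the same way. It was in 3.96% of the promoters of the genes higher in DC than in each population. The share was 2.48% among the promoters of measured genes and 2.72% among all promoters. For neither motif was the difference between these shares tested. A match in letters is a description and shows no binding.

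Receptors for antigen uptake were mixed. Of 31 lectins and scavenger receptors, 16 were higher, 2 of them (Clec9a and Cd209a) than in each population, with a median of 1.04, and 11 of the 16 were 2-fold above the others on both DC arrays. Clec7a, the beta-glucan receptor dectin-1, had 9.86 and 10.51 in DC and 12.54 in GN. Mrc1, the mannose receptor, had 7.62 and 9.18 in DC and 8.38 in MF. The apoptotic cell receptors Axl (9.15 and 10.35) and Mertk (7.44 and 8.79) were, like Mrc1, over 2-fold above replicate 1 on replicate 2, and Mertk lost its call without replicate 2 (0.66). GN or MF exceeded the DC mean in Clec7a and Mertk, and in Cd36 (8.67 and 9.13 in DC, up to 11.29 in MF).

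Of 8 Fc receptor genes, 7 were higher. Fcgr4 had 11.79 and 12.07 in DC, against 5.48 to 12.81, the highest in GN, and the signalling chain Fcer1g had 12.42 and 12.58, with GN again above. Fcgr1 (8.06 and 9.28) and Fcgr3 (9.73 and 10.84) were over 2-fold above replicate 1 on replicate 2, and neither was called without it (0.78 and 0.86). Fcrla, an intracellular protein of B cells related to Fc receptors, exceeded each other population, with 7.37 and 7.59 in DC against at most 6.3999. Fcrl1 had 9.79 and 9.27, which overlapped with GN (up to 9.34).

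Endolysosomal genes were higher in 13 of 27 members and lower in 2, with a median of 0.90, and none was higher than in each population. Ctsh, a cathepsin, had 11.47 and 11.39 in DC and 11.23 in MF. Ifi30, the thiol reductase GILT that opens disulphide bonds of antigen, had 13.07 and 13.09 in DC and 12.57 in MF. Ctss, which cuts the invariant chain, and its inhibitor Cst3 were higher by 1.84 and 1.81, and their DC means minus those of MF were -0.08 and -0.22. Ctsw, a cathepsin of cytotoxic lymphocytes, was lower at 7.27 and 7.499, against 12.46 in NK. The other lower gene, Ctse (8.14 and 9.03), was called with all arrays (difference -1.01) but not without DC replicate 1 (-0.57), with GN left out (-0.79) or without any of 8 other arrays (-0.9994 to -0.9432).

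Pattern recognition genes were higher in 16 of 26 members, none lower, with a median of 1.32. Tlr9, the endosomal sensor of CpG DNA, was the one that exceeded each population. It had 11.56 and 11.56 in DC and 6.899, 7.33 and 8.15 as the lowest, median and highest elsewhere, a difference of 4.18 ± 0.102 (adjusted p = 2.11e-15). Cd180 and Ly86, the surface receptor RP105 and its partner MD-1, had 12.54 and 12.45 and 13.103 and 13.02 in DC, and MF reached 12.11 and 13.004. Tlr7, a sensor of single-stranded RNA, had 10.73 and 10.73 in DC and 10.46 in MF, and Tlr13, a sensor of bacterial ribosomal RNA, 11.28 and 11.27, with GN at 11.51. Tlr3, which senses double-stranded RNA and is known in cDC1, had 10.39 and 10.68, 0.92 above MF. Unc93b1, the protein that carries endosomal TLRs, had 11.69 and 11.78, against at most 11.32. Tlr4, the lipopolysaccharide receptor, stood at 7.36 and 7.88 in DC and 10.06 in GN, and was not called without DC replicate 2 (0.83).

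Costimulatory and coinhibitory genes split. Of 21 members, 9 were higher and 1 lower, with a median of 0.35, and 4 were higher than in each population. Beside Havcr2, described above, these were Cd40 (11.89 and 11.75 in DC, at most 10.67 elsewhere), which receives help from T cells, Cd86 (11.47 and 11.17, at most 10.54), a ligand of CD28, and Icosl (11.605 and 11.36, at most 10.602), the ligand of ICOS. The margins of Cd86 over MF and Icosl over GN lay near 2-fold and did not pass without DC replicate 1, nor for Cd86 without MF replicate 2 or for Icosl without GN replicate 2. Cd80, the other ligand of CD28, had 10.105 and 9.69 in DC and 10.54 in GN. A second probe set of Cd80 gave a difference of 3.76, against 2.39 on the one used. The PD-1 ligands Cd274 and Pdcd1lg2 were higher by 1.12 and 1.87, and Cd274 stood higher still in GN (mean 13.04). Lgals9, which encodes galectin-9, a ligand of TIM-3, was lower at 10.23 and 10.87 in DC, against 11.31 to 11.81, but under 2-fold without DC replicate 1 (-0.698) or with GN left out (-0.99). Its DC values lay below all 16 other arrays.

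Genes of DC maturation and migration were higher in 15 of 23 members, none lower, with a median of 1.43. Fscn1, the actin-bundling protein of mature DC, had 11.07 and 10.79 in DC, against 6.82 to 9.51. Cd83 had 11.61 and 11.24, against 7.23 to 9.6002, and Slco5a1 had 9.301 and 9.01, against 5.51 to 6.08. Those 3, with Relb, Nfkbie and Ccl22, a chemokine for CCR4+ T cells (7.805 and 7.85, at most 6.47), were higher than in each population. The margin of Nfkbie fell under 2-fold without DC replicate 1 (0.91), NKT replicate 2 (0.97) or Treg replicate 2 (0.92). Ccr7, which guides mature DC and naive T cells to lymph nodes, had 11.32 and 11.14 in DC, 12.22 in T4, 12.08 in T8, 11.56 in Treg, 10.89 in Tgd and 6.899 to 7.88 in the other 4 populations.

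Cytokine genes were higher in 12 of 23 members, 8 of them on both DC arrays, with a median of 1.08. Il12b, the p40 subunit of interleukin-12 and interleukin-23, had 8.26 and 8.83 in DC, against 6.398 to 7.02, a difference of 1.81 ± 0.11 (adjusted p = 1.96e-10). Cxcl16, the ligand of CXCR6, had 9.49 and 9.43, against 5.32 to 8.03. These were the 2 that exceeded each population. Il1b had 11.195 and 11.63 in DC and 12.84 in GN, and Il18 had 8.62 and 8.91 in DC and 8.73 in GN. Cxcl9, an IFNg-inducible chemokine outside this list, had 13.2004 and 13.199 in DC and at most 11.55 elsewhere.

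Attractant receptors had calls in both directions, 7 higher and 6 lower of 28, with a median of -0.06. Xcr1 exceeded each population, as given above. Cxcr2, the neutrophil receptor, had 9.54 and 10.76 in DC and 12.45 in GN, and it is one of the granulocyte markers that were 2-fold above replicate 1 on replicate 2. Ccr6 had 7.904 and 7.99 in DC and 8.05 in Treg. The lower genes are known as lymphocyte receptors, among them S1pr1, which leads lymphocytes out of lymphoid organs (6.59 and 6.73 in DC, against 11.66 in T4), Cxcr6 (6.704 and 6.58, against 12.54 in NKT), Cxcr3 and Ccr4. Ccr2, a monocyte receptor, stood at 8.68 and 9.89 and was called without DC replicate 1 (1.46) and not with both.

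The kynurenine pathway breaks down tryptophan, and its genes were called in 6 of 11 cases, 5 higher and 1 lower, with a median of -0.04. Kynu and Kmo, given above, are consecutive enzymes in it. Ido1, which starts the pathway, had 7.66 and 8.03 in DC, against 5.78 to 7.597, and MF were 0.37 below DC. Haao, which acts after Kynu, had 9.52 and 9.49 in DC and 9.42 in T8. Kyat3, a side branch enzyme, was higher by 1.22 ± 0.11. Qprt, which leads the pathway into NAD, was lower at 7.41 and 7.65, against a median of 8.93 elsewhere (difference -1.26 ± 0.095, adjusted p = 6.44e-09). The differences from the mean of the others were thus 6.45 in Kmo and 5.86 in Kynu. They were 1.52 in Ido1 and -1.26 in Qprt, at the ends of the pathway, and 1.43 in Haao, which acts after Kynu. Kmo and Kynu also stood over 5 log2 units above every other population. Ido1 was not called against each population, and the DC mean of Qprt lay 0.04 above that of MF.

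Among 12 nucleases, 4 were higher and 1 lower, with a median of 0.33. Dnase1l3 was described above. Rnase6, a ribonuclease, had 11.82 and 11.905 in DC, against 6.64 to 9.23, and exceeded each population. Pld4, a lysosomal exonuclease of phagocytes and plasmacytoid DC, had 12.203 and 12.27 in DC and 11.69 in MF. Its relative Pld3 was lower at 8.97 and 9.89, against a median of 10.66 elsewhere, and under 2-fold without DC replicate 1 (-0.68). Trex1, a cytosolic exonuclease, was higher by 1.18 ± 0.11 and stood higher still in GN.

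Retinoid genes were called in 2 of 16 cases. Aldh1a2, which makes retinoic acid, had 6.86 and 6.87 in DC, against 5.11 to 7.76, the highest in MF, and Dhrs9, a retinol dehydrogenase, had 7.88 and 9.33, with GN at 11.79. Rxra, a nuclear receptor, had 7.26 and 7.68, a difference of -0.96, and was called lower without DC replicate 2 (-1.17), with GN left out (-1.02) and after quantile normalization (-1.002).

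Of 21 semaphorins, plexins and neuropilins, which guide cell contacts and movement, 6 were higher and none lower, with a median of 0.01, and 4 of the 6 exceeded each population. Plxnc1 had 12.36 and 12.08 in DC, against 7.54 to 10.404. Its ligand Sema7a had 9.51 and 8.89, against 6.204 to 8.05. Sema6d had 7.91 and 8.09, against 6.001 to 6.498, and Plxnd1 9.87 and 9.71, at most 8.88. All 4 lay above every other array on both DC arrays, which their choice as higher than each population nearly fixed. The margins of Sema7a (without DC replicate 1, 0.87) and Plxnd1 (without Treg replicate 2, 0.91) fell under 2-fold. Plxnb2 (10.75 and 10.73) was exceeded by MF, and Nrp1 (9.08 and 9.08) by Treg.

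Leukocyte integrins gave calls in both directions, 3 higher with the gate gene Itgax included and 2 lower of 20, with a median of 0.03. On each DC array taken alone, 1 of the 3 and 1 of the 2 were 2-fold from the mean of the others. Itgam (CD11b) had 9.57 and 10.31 in DC and 12.64 in MF, and lost its call without DC replicate 2 (0.93). Itga6 was lower at 6.205 and 6.62, below all other arrays (7.23 to 12.24). Without DC replicate 1 the list gave 5 higher, without DC replicate 2 it gave 1 and with MF left out 5. Of 27 actin and dendrite genes, 8 were higher and 1 lower, with a median of 0.19. Nav1, which binds microtubules in neurons, had 11.76 and 11.61, against 6.48 to 10.86, with a margin over MF that fell under 2-fold without DC replicate 1 (0.95) or MF replicate 2 (0.82). The exchange factors Dock10 and Swap70 were higher by 1.503 and 1.73, and Def6, a relative of Swap70, was lower (difference -1.27 ± 0.08).

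**Figure D5:**
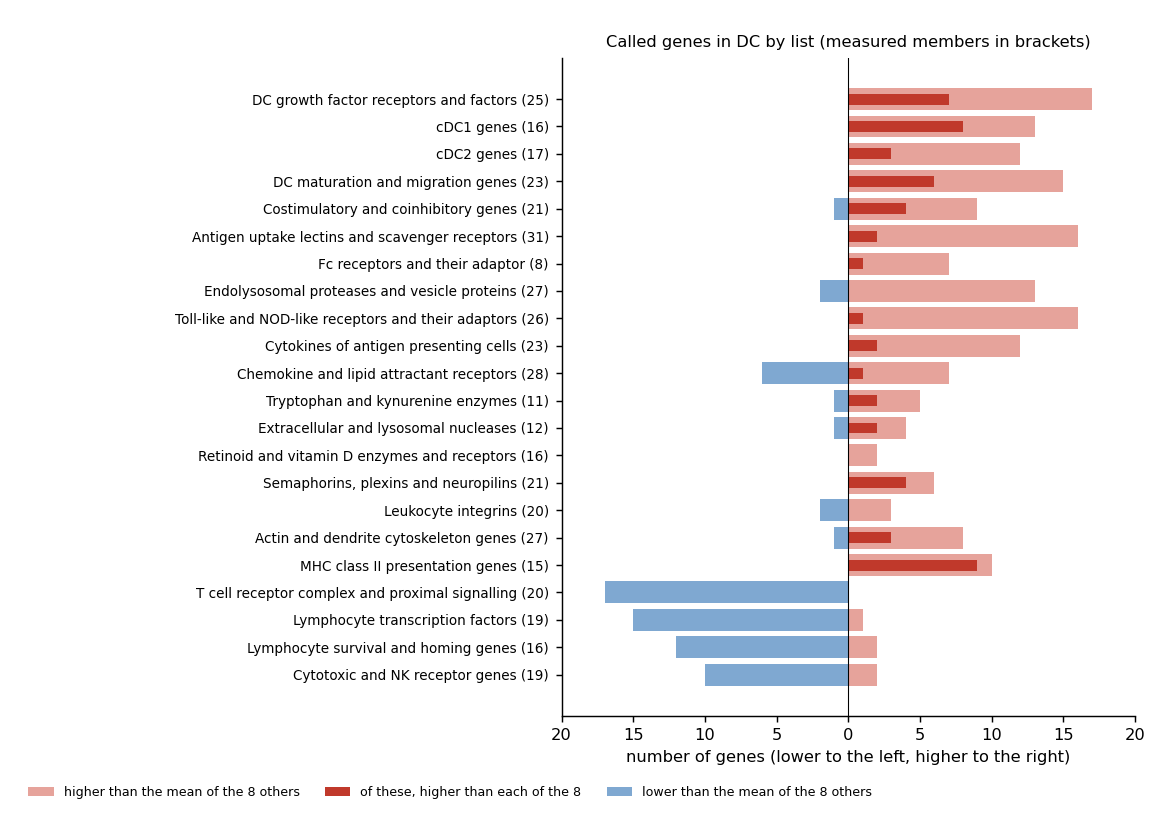
Number of genes called higher (right) and lower (left) in DC for each role list, with the number higher than in each of the 8 other populations in dark red. MHC class II and cDC1 genes gave the most of these (9 of 15 and 8 of 16), and T cell receptor genes gave 17 lower of 20. DC were sorted as MHCII+ cells, and the 9 include the gate gene H2-Ab1.

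The 8 genes with the largest negative differences in DC are genes of lymphocytes, which make up 6 of the 8 populations in the mean. Of 20 T cell receptor complex and signalling genes, 17 were lower and none higher, with a median of -2.93, and none of the 17 was called with the 16 other arrays as 1 group. Cd3g had 5.52 and 5.43 in DC and a median of 12.35 elsewhere, a difference of -4.84 ± 0.17 (adjusted p = 1.16e-13), and its lowest value elsewhere was 5.27. Cd28 (-3.97), Gimap3 (-3.79), Cd96 (-3.74), Cd2 (-3.64), Cd27 (-3.64), Lat (-3.53) and Gpr174 (-3.51) completed the 8. None of the 8 was lower than in each population, as GN or MF lay within 2-fold of DC or below it.

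Lymphocyte transcription factors were lower in 15 of 19 cases, with a median of -1.24. Lef1 (6.89 and 6.89 in DC, against a median of 10.99), Ets1 (6.905 and 7.02, against 11.03) and Gata3 (6.62 and 6.57, against 10.51) had the largest differences. Tbx21, which encodes T-bet, was the one higher gene, with 11.002 and 10.75 in DC, between 12.24 in NK and 6.67 in MF, though it stood under 2-fold with MF left out (0.98). Survival and homing genes were lower in 12 of 16 cases, with a median of -2.48, and these included all 8 GIMAP genes of the list, GTPases of lymphocyte survival. Gimap9 had 6.02 and 6.099 in DC, below every other array (6.94 to 10.39).

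Cytotoxic and NK receptor genes were lower in 10 of 19 cases and higher in 2, with a median of -1.07. Cd226 (-2.77), Ctsw (-2.62) and Cd160 (-2.33) had the largest differences. The 2 higher genes were Klrd1, which encodes CD94 (10.64 and 10.61 in DC, 12.09 in NK and 5.001 in MF), and Klrk1, which encodes NKG2D (9.61 and 9.69, 12.06 in NK). Klri2, a lectin of the NK marker list, had 8.44 and 8.36 in DC and 11.33 in NK. The NK-defining gene Klrb1c stood at 6.199 and 7.22 in DC and 12.57 in NK, and the 8 NK markers summed to 941 and 1317 in DC and 35203 to 35266 in NK.

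The 24 genes lower in DC than in each population were fewer and depended on the DC array. Without DC replicate 1 they numbered 11 and without replicate 2 they numbered 39. The following were named after their values were seen. Nt5e, the ectoenzyme CD73, had 6.42 and 6.74 in DC, against 7.87 to 10.95 elsewhere. Hsd11b1, which activates glucocorticoids, had 6.78 and 7.51, against 8.47 to 11.397. Cd84, a SLAM family receptor, had 7.403 and 8.76, against 10.15 to 11.15, and Tcp11l2 6.62 and 7.42, against 8.42 to 10.07. The phosphodiesterase Pde2a (7.77 and 8.53) and the spectrin Sptbn1 (8.31 and 8.73) stood below 9.49 and 9.59. Notch1, Rasgrp2, Rnf125, Cmah and Tspan32 were also among the 24, and none of these 5 passed without DC replicate 1. In the 6 genes given with values, both DC arrays lay below all 16 others, which their choice as lower than each population nearly fixed.

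Of 17 immediate early and stress genes, 8 were higher in DC with a median of 1.03, and 3 without DC replicate 1. Hspa1a, a heat shock protein, had 11.78 and 11.596 in DC, against 7.39 to 9.76, and exceeded each population. Atf3 had 12.09 and 11.22 in DC and 10.94 in MF, and Fosb 11.45 and 10.81 in DC, above all other arrays (at most 10.58). Ier3 lost its call without DC replicate 1 (0.80), and so did Nr4a2, outside this list, at 10.57 and 9.44 (0.53), which also lost it without T8 replicate 2 (0.99) and with GN (0.88) or MF left out (0.93). The part of these genes in the maturation and cytokine results was not tested. Of 17 cell cycle genes, 3 were higher (Bub1, Ccna2 and Mki67), all of them exceeded by MF, and Ccna2 stood just under 2-fold without DC replicate 2 (0.9985).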

How the data were processed

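The table deposited by the authors held a linear intensity for every probe set on each array. Per the submitters' processing notes, RMA in Affymetrix Power Tools was used (versions not given in the sources used here). RMA corrects background, normalizes arrays and sums up the probes of a set, and log2 was taken here. Of 24922 probe sets, 21425 had 1 gene symbol in GEO's platform annotation, updated by Entrez number against the RefSeq table of GRCm38.p6 (21347 matched), and 1399 with several symbols and 2098 with none were not named. For 921 genes with several probe sets the brightest was used, which left 19752 genes. The number of arrays limits the precision.

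Tests used R 4.3.3 and its package limma 3.58.1 (moderated contrasts with a mean-variance trend, 9 residual and 7.69 prior degrees of freedom), with 1 mean per population over all 18 arrays and no covariate, and all p are two-sided and adjusted by Benjamini-Hochberg. The procedure was tested on simulated data. The DC arrays, the gene lists, the motifs and the tests were chosen with earlier results of these data known, so list counts are descriptions. Genes were named by rule: the 3 gate genes; the 12 genes of the widest gap to the next population among those higher than in each, with the lower DC array 2-fold above the highest other array; the 8 most negative differences; the 3 largest called differences of each role list; the 5 called genes that differed most between the DC arrays in each direction; and the 2 largest of each marker list. Clone and small RNA names were left out, and further genes in the text were chosen after their values were seen. Alternatives were leaving out each array, GN or MF, a replicate block, other normalization, weights, filters, thresholds and probe set rules, and DC against the 16 other arrays as 1 group.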

Additional observations from a re-analysis of the deposited data

Results flagged for a closer look

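Probe sets outside the named genes also carried signal in DC. Among the 1399 probe sets that list several gene symbols, 57 passed upward in the DC contrast, 20 of them against each population, and 36 passed downward. Among the 2098 without a listed gene, 80 passed upward, 21 of them against each population, and 40 downward. They are not named here.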

How the results depend on the processing

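The 28 alternatives included the 4-fold threshold and DC against the 16 other arrays as 1 group. With these settings set aside, 198 of 227 named genes kept their call and direction under all the rest, and 29 did not. Of 88 named genes that were higher or lower than in each population, 14 lost that call under some alternative of the same kind. Leaving out 1 array at a time gave 1002 to 1107 higher genes, 431 to 549 lower, 253 to 268 higher than in each and 11 to 39 lower than in each. Of the 1048, 477 and 263 genes called with all arrays, 961, 458 and 249 were called in the corresponding comparison without DC replicate 2 as well. Without DC replicate 2, Igha (-0.036) and Igkv4-91 (-0.11) changed sign, against 5.24 and 4.797 without DC replicate 1, and Pf4 did with MF left out (0.28). With GN left out, 63 genes were lower than in each, and with MF left out 398 were higher and 56 lower than in each, by construction, as fewer populations had to be passed. A 4-fold threshold left 421 higher and 101 lower genes, 91 higher than in each and 1 lower than in each. DC against the 16 arrays as 1 group, where the differences between the other populations enter the spread, gave 415 higher and 98 lower, and no comparison with each. There 111 of the named genes lost a call, and with this setting counted 120 of 227 changed under some alternative other than 4-fold. The T cell receptor list gave 0 lower, against 17, uptake receptors 2 higher, against 16, pattern recognition genes 4, against 16, and DC lineage genes 7, against 17. With the replicate block the counts were 1064, 453, 266 and 22. Of the genes called without it, 1020, 433, 257 and 21 were called with it as well. Among the named genes the block ended the calls of Ccl4 (0.99), Ctse (-0.52), Klrb1c (-0.95), Lgals9 (-0.91), Pld3 (-0.96) and Rfx5 (0.98), and that of Nfkbie against each population (0.997). The labels do not say that the replicate numbers pair arrays. Deviations of same-numbered arrays correlated at -0.20 to 0.47 over 54 pairs, 19 of them over 0.1. Over the 10 pairs with a DC array they ran from -0.05 to 0.09, so not every pair was over 0.1. The 2 deviations of a population mirror each other. Populations that share both replicate numbers therefore give the same correlation again, and these counts hold repeats. Signal near the background limits the folds of dim genes.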
